A study of Mus musculus with 6 samples.

Results

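The collagens and fibroblast matrix genes described here are 38 genes chosen by symbol: fibrillar and other collagens, the proteins that assemble, bind, crosslink or degrade the matrix around them, and mesenchymal genes that could mark feeder-like cells in a culture. All 38 were found among the 37620 genes of the count table, and 34 of them passed the filter on low counts, beside 16023 genes in all. PolyA RNA was sequenced from E14 mouse embryonic stem cells (ESCs), a line of strain 129/Ola, in 3 libraries of wild-type (WT) cells and 3 libraries of *Ube2d3*-S138A cells. The S138A cells carry a CRISPR/Cas9 edit that replaces a serine of UBE2D3, a ubiquitin-conjugating enzyme, with alanine. Both genotypes were grown in 15% serum, and the study kept its ESCs with LIF on gelatin and names no feeder layer. It compared WT ESCs with 1 S138A clone, so mutation and clone cannot be told apart here. The revertant cells of the study were not analysed here. Whether the libraries of a genotype come from separate cultures is not stated, and p-values measure only the spread between these libraries, which may be technical. The S138A columns carry no replicate number in the labels and are called S138A A, B and C.

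Collagens are trimers of chains whose coding sequence repeats a glycine at a fixed spacing, in a Gly-X-Y pattern, so that the chains can wind into a triple helix. Fibrillar collagens I, III and V form the cable-like fibrils of connective tissue, and lysyl oxidases crosslink them. Around the fibrils lie fibronectin and fibrillin networks and small proteoglycans, which fibroblasts and other mesenchymal cells secrete in quantity. Undifferentiated ESCs instead lay down mainly basement membrane proteins such as laminin, perlecan and collagen IV.

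The libraries held 33227593 to 37169770 counts each. The first principal component of log2 CPM (counts scaled by library size and TMM factors) took 57.2% of the variance and set WT 3 and S138A C apart from the other 4 libraries, while the second took 25.6% and separated the genotypes. For that reason S138A C is also compared with WT 3 apart, and for many members a value from the other 4 libraries, or from a fit with the library numbers as a block, stands beside the pooled one. The counts cannot check the genotype labels, because a changed residue cannot be seen in a count per gene. Marker genes of pluripotent cells summed to between 5524 and 6221 CPM in the WT libraries and to between 5635 and 5823 in the S138A libraries. In bulk RNA fewer cells of a type and less RNA per cell cannot be told apart.

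The first 10 repeats of the long helix of 4 collagens are printed because the comparison turns on chains that share this repeat and differ in their mRNA level. They come from the coding sequence of GENCODE M21 transcripts, 5′ to 3′, with the codon of the glycine that opens each repeat in capitals. The stretches run over coding bases 502 to 591 of *Col1a1*, 289 to 378 of *Col1a2*, 490 to 579 of *Col3a1* and 766 to 855 of *Col6a1*, counted from the start codon.
Col1a1: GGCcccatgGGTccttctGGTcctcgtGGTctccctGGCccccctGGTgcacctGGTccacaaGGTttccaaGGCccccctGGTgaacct
Col1a2: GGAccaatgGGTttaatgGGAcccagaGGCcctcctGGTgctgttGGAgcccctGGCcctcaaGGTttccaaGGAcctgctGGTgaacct
Col3a1: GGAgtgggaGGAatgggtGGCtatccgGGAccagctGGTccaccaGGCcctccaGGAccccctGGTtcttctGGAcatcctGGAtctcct
Col6a1: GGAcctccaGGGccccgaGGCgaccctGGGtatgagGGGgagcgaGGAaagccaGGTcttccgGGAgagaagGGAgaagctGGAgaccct
The longest unbroken run of such repeats was 338 in *Col1a1*, 339 in *Col1a2*, 344 in *Col3a1*, 338 in *Col5a1* and 339 in *Col5a2*. It was 87 in *Col6a1* and in *Col6a2*, 45 in *Col6a3*, 61 in *Col8a1*, 32 in *Col12a1* and 30 in *Col18a1*. Glycine codons made up 28.3% of the coding sequence in *Col3a1*, the highest share of the 11 collagens among the members, and 9.07% in *Col6a3*, the lowest. The 5 fibrillar genes thus encode helices of nearly one length.

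*Col1a2* and *Col3a1* had different values in the genotype comparison below, and their promoters are shown as the 250 bases before the start of transcription in RefSeq (GRCm38.p6, plus strand). The region of *Col1a2* is chr6:4505368-4505617 and that of *Col3a1* is chr1:45311288-45311537. Capitals mark the letters CCAAT of the CCAAT box in the first and the letters TATAAA of the TATA box in the second. They were matched anywhere in the 250 bases, and their distance from the start was not taken into account.
Col1a2 promoter: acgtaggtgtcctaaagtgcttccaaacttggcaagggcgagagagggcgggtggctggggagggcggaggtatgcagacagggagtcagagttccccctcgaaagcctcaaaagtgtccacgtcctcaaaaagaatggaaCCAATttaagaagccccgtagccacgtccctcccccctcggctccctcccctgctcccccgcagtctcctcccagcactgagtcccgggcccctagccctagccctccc
Col3a1 promoter: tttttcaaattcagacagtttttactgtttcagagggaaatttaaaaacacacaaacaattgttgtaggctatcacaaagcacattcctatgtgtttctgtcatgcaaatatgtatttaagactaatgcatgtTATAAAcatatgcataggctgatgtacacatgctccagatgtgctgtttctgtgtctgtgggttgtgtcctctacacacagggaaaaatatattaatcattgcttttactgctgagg
On both strands of the 300 bases around each start, CCAAT was present in 37.4% and TATAAA in 13.6% of 32851 RefSeq promoters. The 24 members with a promoter in that table had 29 promoters. Of these 29, 8 held CCAAT (in 8 members) and 8 held TATAAA (in 7 members). The letters GGAATG, a core that TEAD factors bind, were present in 14.7% of all promoters and in 7 of the 29 member promoters. Those belonged to 7 members, among them *Cyr61*, *Acta2* and *Col3a1*. The CArG box of serum response factor was present in 1.63% of all promoters and in none (0) of the members'. Each motif was counted on its own, overlaps between motifs were not removed, and a match describes letters in a window and no bound factor.

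With the 3 libraries of each genotype compared by edgeR's quasi-likelihood test, none of the 34 tested members was called at an adjusted p under 0.05 (0 members), where 0% of the 16023 genes tested were called. At an unadjusted p under 0.05 the same test had 9 members, all with higher values in S138A ESCs, beside 7.62% of all genes tested with higher values. DESeq2 called 6 members (4.97% of all genes tested), all of them higher (2.62% of all genes) and 0 lower (2.35%), and limma-voom called 0 members and 0 genes. The fitted log2 fold change (S138A over WT) was above 0 in 27 of the 34 members and below 0 in 7, and its median was 0.38 over the members and 0.02 over all genes tested. Leaving out S138A C brought 2 members past the threshold, *Thy1* (adjusted p = 0.0305) and *Tnc* (adjusted p = 0.038), with 79 genes in all.

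With the library number as a block, which pairs WT 1 with S138A A, WT 2 with S138A B and WT 3 with S138A C, edgeR called 13 members higher in S138A ESCs, where 10.7% of all genes tested were called higher. It called 1 member lower, *Col5a2*, where 9.13% of all genes were called lower. The 4 libraries without WT 3 and S138A C gave calls for 29.6% of all genes, with 21 members higher (15.3% of all genes) and 1 lower (14.3%). With a term for the set of libraries in place of the block, 14 members were called higher (14.6% of all genes). All 3 of these fits called 12 members higher, where they called 9.89% of all genes tested higher, and 1 member lower, where they called 8.64% lower. By plain CPM, each S138A library lay above each WT library for 9 members, where 11.3% of all genes did, and below for 0 members, where 10.9% did. Those 9 members were *Col1a1*, *Col3a1*, *Col5a1*, *Col18a1*, *Thy1*, *Fbn1*, *Loxl1*, *Loxl2* and *Prrx1*, and the groups overlapped for the other 25 tested members.

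**Figure D1:**
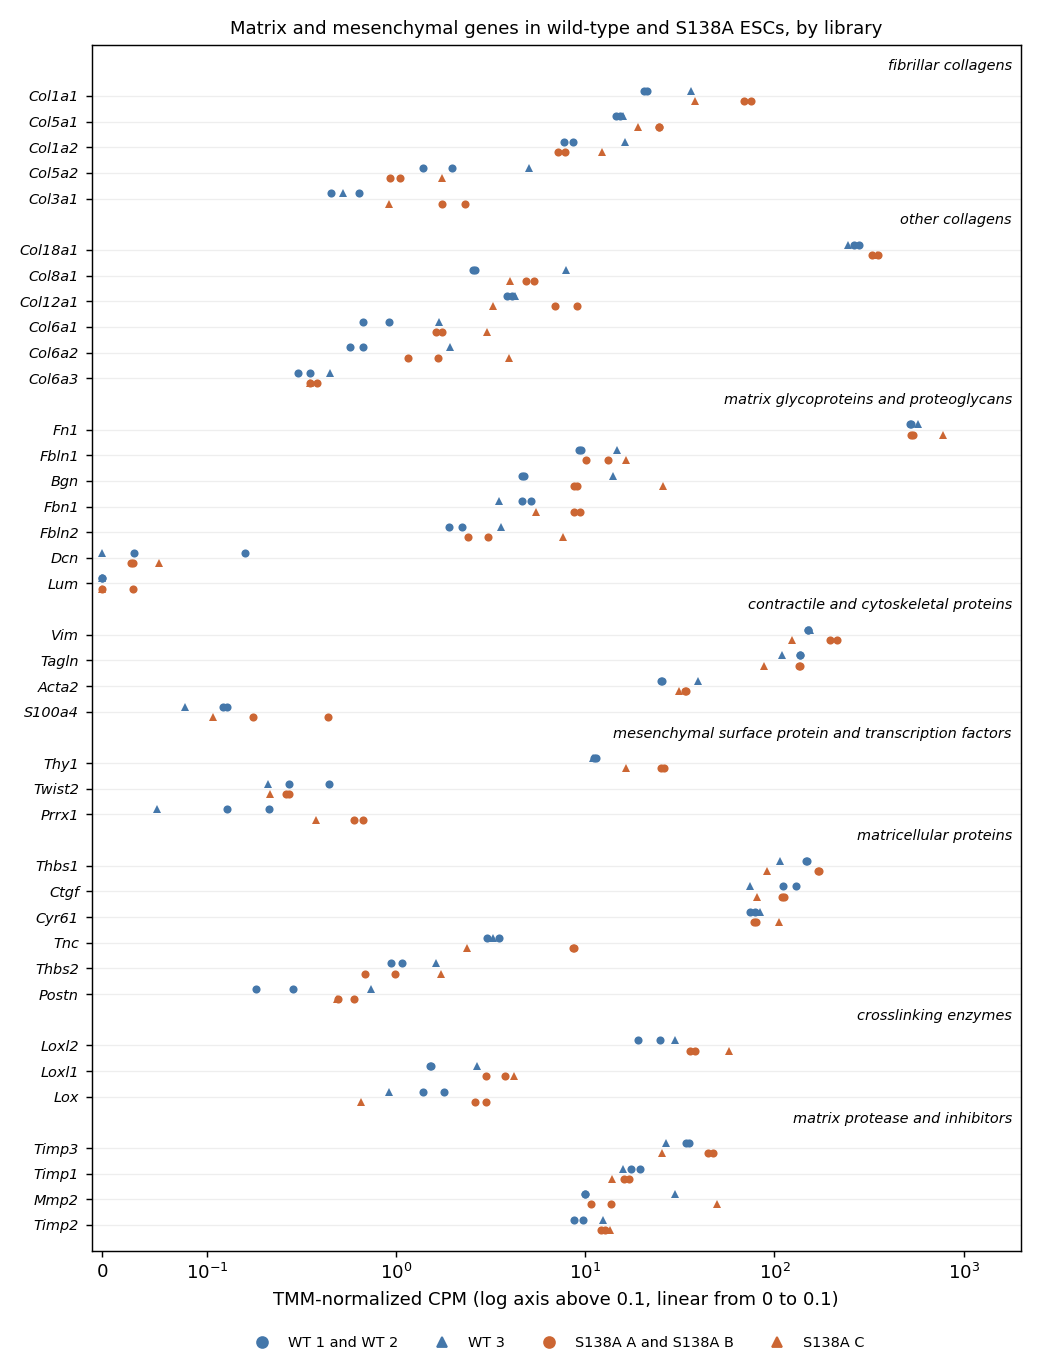
TMM-normalized CPM of the 38 genes in each of the 6 libraries, grouped by role, on an axis that is linear from 0 to 0.1 and logarithmic above. Blue points are WT and orange points S138A libraries, triangles mark WT 3 and S138A C, and the S138A points of *Thy1*, *Loxl2*, *Col18a1* and *Fbn1* all lie to the right of the WT points.

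Of the 5 fibrillar collagen genes, *Col1a1*, *Col3a1* and *Col5a1* were called higher and *Col5a2* lower with the block, while *Col1a2* was not called. *Col1a1* (ENSMUSG00000001506, GRCm38 chr11:94936224-94953042), the gene of the chain that is present in 2 copies in each type I collagen molecule, had 21.1, 20.5 and 36.1 CPM in WT 1, 2 and 3 and 68.8, 75.0 and 37.9 CPM in S138A A, B and C. The S138A libraries lay above the WT libraries, but S138A C exceeded WT 3 by less than the WT libraries differed among themselves. The means were 25.9 ± 8.86 and 60.6 ± 19.8 CPM (SD, n = 3 each), and the log2 fold change was 1.22 (SE 0.32, adjusted p = 0.21 from edgeR, 0.0362 with the block). In the 4 libraries without WT 3 and S138A C it was 1.79 (edgeR adjusted p = 3.33e-05).

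*Col1a2* (ENSMUSG00000029661, chr6:4504814-4541544), the gene of the other type I chain, had 8.63, 7.72 and 16.2 CPM in the WT libraries and 7.16, 7.80 and 12.3 CPM in S138A A, B and C. Here the highest library of each genotype was WT 3 or S138A C, and the groups overlapped. Its log2 fold change was -0.26 (SE 0.35, edgeR adjusted p = 0.78), and with the block it was -0.22 (SE 0.12, adjusted p = 0.226). The type I genes were therefore set against each other within each library, a ratio chosen after the values were seen. The count of *Col1a1* was 2.45, 2.66 and 2.23 times that of *Col1a2* in the WT libraries and 9.61, 9.61 and 3.09 times in S138A A, B and C. Each S138A ratio was above each WT ratio, and S138A C lay nearer to the WT libraries than to S138A A and B. The means were 2.44 ± 0.216 and 7.44 ± 3.77 (SD, n = 3 each), and an exact two-sided permutation test gave p = 0.1, the smallest value that 3 libraries against 3 allow. Per kilobase of transcript the mean ratios were 2.20 and 6.71.

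**Figure D2:**
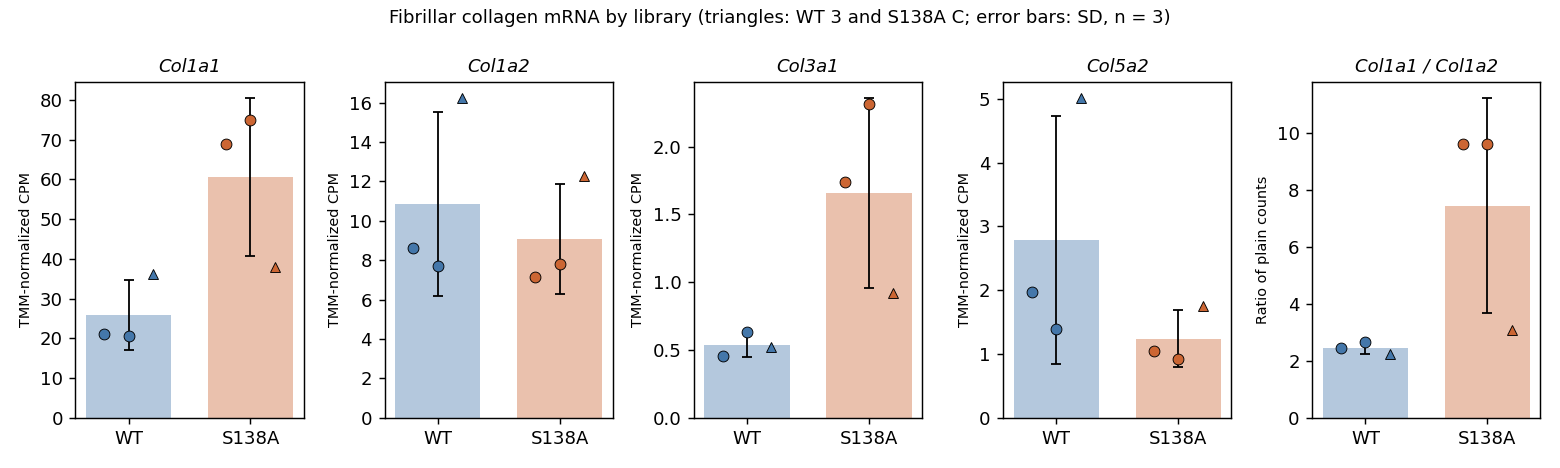
TMM-normalized CPM of *Col1a1*, *Col1a2*, *Col3a1* and *Col5a2*, and the ratio of *Col1a1* to *Col1a2* counts, in both genotypes. Each bar gives the mean of a genotype with the SD over its 3 libraries, and each point is 1 library, a triangle for WT 3 and S138A C. The ratio is between 2.23 and 2.66 in WT libraries, 9.61 in S138A A and B and 3.09 in S138A C.

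*Col3a1* (ENSMUSG00000026043, chr1:45311538-45349706), whose product forms fibrils in extensible tissues, was at a low level, with 15, 20 and 20 counts in the WT libraries and 60, 85 and 34 counts in S138A A, B and C. Its S138A libraries were all above its WT libraries. In CPM the means were 0.537 ± 0.0901 and 1.66 ± 0.701 (SD, n = 3 each), a log2 fold change of 1.62 (SE 0.40, edgeR adjusted p = 0.2), which passed with the block (1.55, SE 0.30, adjusted p = 0.0161) and in DESeq2 (adjusted p = 0.03). *Col5a2* (ENSMUSG00000026042, chr1:45374321-45503282), a type V chain, lies 24614 bp away from *Col3a1* on the opposite strand. It had 1.97, 1.39 and 5.01 CPM in the WT libraries and 1.04, 0.924 and 1.75 CPM in S138A A, B and C. The groups overlapped because S138A C was above WT 2, although each S138A library was below the WT library of its number. The log2 fold change was -1.17 (SE 0.53, edgeR adjusted p = 0.384) and with the block -1.06 (SE 0.24, adjusted p = 0.0238). The count of *Col3a1* relative to its neighbour *Col5a2* was 0.231, 0.455 and 0.105 in the WT libraries and 1.67, 2.5 and 0.523 in S138A A, B and C. Each S138A ratio was above each WT ratio (exact two-sided permutation p = 0.1, the smallest value possible). This ratio was also chosen after the values of both genes were seen, so it adds no support of its own.

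*Col5a1* (ENSMUSG00000026837, chr2:27886425-28039514), the other type V chain and an initiator of fibril assembly, had 15.2, 14.6 and 15.8 CPM in the WT libraries and 24.4, 24.4 and 18.9 CPM in S138A A, B and C. All S138A libraries were above all WT libraries, S138A C by the least. The means were 15.2 ± 0.640 and 22.6 ± 3.18 CPM (SD, n = 3 each), and the log2 fold change was 0.57 (SE 0.15, edgeR adjusted p = 0.209, 0.0203 with the block). The type V chains thus had values in opposite directions, and the count of *Col5a1* was 7.11 ± 3.68 times that of *Col5a2* in WT and 20.2 ± 8.29 times in S138A libraries (SD, n = 3 each, exact two-sided permutation p = 0.1, the smallest value possible). This ratio was chosen after the values were seen and shares *Col5a2* with the ratio to *Col3a1*, so it is not separate support.

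Among the 6 other collagens, 3 were called higher with the block. *Col18a1* (ENSMUSG00000001435, chr10:77052178-77166548), the precursor of endostatin and a basement membrane collagen, had 265, 279 and 246 CPM in the WT libraries and 329, 353 and 347 CPM in S138A A, B and C. The groups did not overlap and WT 3 and S138A C did not stand apart from their genotypes. Its means were 263 ± 16.7 and 343 ± 12.4 CPM (SD, n = 3 each), with a log2 fold change of 0.38 (SE 0.09, edgeR adjusted p = 0.198, 0.0136 with the block). *Col6a1* (ENSMUSG00000001119, chr10:76708792-76726168) and *Col6a2* are neighbours on chromosome 10, 85161 bp apart on the same strand, and encode chains of the beaded filaments of type VI. *Col6a1* had 0.666, 0.918 and 1.68 CPM in the WT libraries and 1.62, 1.74 and 3.02 CPM in S138A A, B and C. The groups overlapped only in that WT 3 exceeded S138A A, and the log2 fold change of 0.96 (SE 0.43, edgeR adjusted p = 0.377) passed with the block (0.99, SE 0.21, adjusted p = 0.0205). The values of *Col6a2* ran from 0.569 to 1.91 CPM in WT and from 1.16 to 3.94 in S138A libraries, with a block log2 fold change of 1.11 (SE 0.23, edgeR adjusted p = 0.0187). *Col6a1* had 1.16 ± 0.393 times the counts of *Col6a2* in WT and 1.07 ± 0.317 times in S138A libraries (SD, n = 3 each, exact two-sided permutation p = 0.7). The remaining chain, *Col6a3*, was between 0.303 and 0.446 CPM in WT and between 0.348 and 0.381 in S138A libraries (block adjusted p = 0.968 from edgeR).

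For *Col12a1* and *Col8a1* the genotype difference went in opposite directions in the pair WT 3 and S138A C and in the other 4 libraries. *Col12a1* (ENSMUSG00000032332, chr9:79598991-79718831), a collagen that binds to the surface of fibrils, had 4.12, 3.86 and 4.22 CPM in the WT libraries and 8.98, 6.88 and 3.26 CPM in S138A A, B and C. S138A A and B were above every WT library and S138A C was below every one. Its log2 fold change was 0.65 (SE 0.36, edgeR adjusted p = 0.471) over all libraries and 0.99 (edgeR adjusted p = 0.00419) in the 4 libraries without WT 3 and S138A C. *Col8a1*, a short-chain collagen of vessel walls and the cornea, was between 2.54 and 2.59 CPM in WT 1 and 2, at 7.89 in WT 3, and between 3.99 and 5.38 in the S138A libraries. Over all libraries its log2 fold change was 0.12 (SE 0.47, edgeR adjusted p = 0.935), against 0.99 (edgeR adjusted p = 0.00278) in the 4 libraries.

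Of the 7 matrix glycoproteins and proteoglycans, *Fbn1* and *Bgn* were called higher with the block and *Fn1* was not. *Fn1* (ENSMUSG00000026193, chr1:71585520-71653200), fibronectin, which cells bind through integrins, had 519.6, 526 and 571 CPM in the WT libraries and 530.2, 542 and 779.7 in S138A A, B and C. S138A C stood above the other 5 libraries, and the other S138A libraries lay within the WT range. The log2 fold change was 0.20 (SE 0.16, edgeR adjusted p = 0.637), and 0.03 (adjusted p = 0.632) in the 4 libraries without WT 3 and S138A C. *Fbn1* (ENSMUSG00000027204, chr2:125300594-125507993), fibrillin of the microfibrils that hold latent TGF-beta, had 4.63, 5.19 and 3.51 CPM in the WT libraries and 9.33, 8.67 and 5.50 CPM in S138A A, B and C. Its groups did not overlap, WT 3 and S138A C being the lowest of each, and the log2 fold change was 0.82 (SE 0.27, edgeR adjusted p = 0.264, 0.0125 with the block). An annotated gene on the opposite strand shares 20.1% of the exon bases of *Fbn1*, and the strand setting of the counting is not stated. *Bgn* (ENSMUSG00000031375, chrX:73483602-73495933), biglycan, a small proteoglycan that binds collagen fibrils, had 4.75, 4.62 and 14.1 CPM in the WT libraries and 8.69, 9.02 and 25.6 CPM in S138A A, B and C. Here WT 3 and S138A C were the highest of their genotypes, and each S138A library exceeded the WT library of its number. The log2 fold change of *Bgn* was 0.88 (SE 0.60, edgeR adjusted p = 0.552) without the block and 0.90 (SE 0.10, adjusted p = 0.00582) with it.

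*Fbln1* and *Fbln2*, fibulins of elastic fibres and basement membranes, were not called with the block (edgeR adjusted p = 0.155 and 0.0692), and *Fbln2* was called with the term for the set of libraries (adjusted p = 0.0343). *Fbln2* was between 1.90 and 3.59 CPM in WT and between 2.41 and 7.63 in S138A libraries, with S138A C the highest. Unlike *Bgn*, the small proteoglycans *Lum* and *Dcn* were at or near 0. *Lum*, lumican, had 0 counts in all 3 WT libraries and in S138A B and C, and 1 count in S138A A. *Dcn*, decorin, which lies 46984 bp from *Lum* on chromosome 10, had 1, 5 and 0 counts in the WT libraries and 1, 1 and 2 counts in S138A A, B and C. Neither gene passed the filter on low counts, and no fold change is given for them.

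In the crosslinking group, *Loxl1* and *Loxl2* were called higher with the block and *Lox* was not. *Loxl2* (ENSMUSG00000034205, chr14:69609068-69695834), a lysyl oxidase that acts on collagen IV, had 24.9, 19.0 and 29.8 CPM in the WT libraries and 38.05, 35.9 and 57.6 CPM in S138A A, B and C. The groups did not overlap, and WT 3 and S138A C were the highest of each. Its means were 24.6 ± 5.40 and 43.9 ± 11.96 CPM (SD, n = 3 each), and the log2 fold change was 0.83 (SE 0.24, edgeR adjusted p = 0.225, 0.00567 with the block). *Loxl1* (ENSMUSG00000032334, chr9:58287738-58313186), which crosslinks elastin, had 1.51, 1.52 and 2.67 CPM in the WT libraries and 2.98, 3.78 and 4.18 CPM in S138A A, B and C. Every S138A library was above every WT library, and the block log2 fold change was 0.96 (SE 0.19, edgeR adjusted p = 0.0181; 0.264 without the block). *Lox*, the founding member of the family, was between 0.917 and 1.79 CPM in WT libraries, at 2.98 and 2.61 CPM in S138A A and B and at 0.647 in S138A C. Its block adjusted p was 0.275, against 0.0177 in the 4 libraries without WT 3 and S138A C (edgeR).

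*Thy1* (ENSMUSG00000032011, chr9:44043384-44048579), a surface protein of fibroblasts, neurons and T cells, had the lowest adjusted p of the members in edgeR without the block, where no member was called. It had 11.05, 11.3 and 11.01 CPM in the WT libraries and 25.3, 26.1 and 16.5 CPM in S138A A, B and C. The WT libraries were close to each other and all S138A libraries were above them, S138A C the least so. The means were 11.1 ± 0.173 and 22.6 ± 5.33 CPM (SD, n = 3 each), and the log2 fold change was 1.02 (SE 0.20, edgeR adjusted p = 0.187, 0.00882 with the block). *Prrx1* (ENSMUSG00000026586, chr1:163245119-163313710), a transcription factor of limb and facial mesenchyme, had 7, 4 and 2 counts in the WT libraries and 23, 22 and 14 counts in S138A A, B and C. Its counts were low in all libraries, and each S138A library was above each WT library. The block log2 fold change was 2.08 (SE 0.42, edgeR adjusted p = 0.0179; 0.208 without the block), and with 2 to 7 counts in the WT libraries its size is imprecise. *Twist2*, a transcription factor of dermal fibroblasts, had 9, 14 and 8 counts in WT and 9, 10 and 8 in S138A libraries and did not pass the filter. An annotated antisense gene shares 46.5% of the exon bases of *Twist2*.

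The cytoskeletal members gave no call with the block. *Vim* (ENSMUSG00000026728, chr2:13573927-13582826), vimentin, the intermediate filament of mesenchymal cells and of many cultured cells, had 149.9, 151 and 154 CPM in the WT libraries and 197, 213 and 124 CPM in S138A A, B and C. S138A A and B were above the WT libraries, which were close together, and S138A C was below them. *Vim* had a log2 fold change of 0.23 (SE 0.20, edgeR adjusted p = 0.647), and of 0.44 (adjusted p = 0.00245) in the 4 libraries without WT 3 and S138A C. *Acta2*, smooth muscle actin, had 25.1, 25.6 and 39.5 CPM in the WT libraries and 33.7, 33.9 and 31.2 CPM in S138A A, B and C, with WT 1 and 2 below the S138A libraries and WT 3 above them. Its log2 fold change was 0.13 (SE 0.19, edgeR adjusted p = 0.8), and 0.41 (adjusted p = 0.00492) in the 4 libraries, and the actin genes are so alike that reads may be shared among them. *Tagln*, transgelin, an actin-binding protein and a target of serum response factor, was at 136, 136 and 110.1 CPM in the WT libraries and 134, 136 and 88.0 in S138A A, B and C, with overlapping groups (log2 fold change -0.09, SE 0.19, edgeR adjusted p = 0.864). An annotated antisense gene shares 62.4% of the exon bases of *Tagln*. *S100a4*, called fibroblast-specific protein, had between 3 and 4 counts in the WT libraries and 6, 16 and 4 counts in S138A A, B and C, and did not pass the filter. An annotated protein-coding gene on the same strand shares 51.7% of the exon bases of *S100a4*, so its reads may have been dropped or shared in the counting.

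Of the 6 matricellular proteins, which signal to cells more than they build the matrix, none was called with the block (0 of 6). *Tnc* (ENSMUSG00000028364, chr4:63959785-64047015), tenascin C, had 3.03, 3.48 and 3.25 CPM in the WT libraries and 8.63, 8.70 and 2.37 CPM in S138A A, B and C. S138A A and B were far above the WT libraries and S138A C was below them. Its log2 fold change was 1.01 (SE 0.47, edgeR adjusted p = 0.393, 0.13 with the block), and 1.41 (adjusted p = 0.000446) in the 4 libraries without WT 3 and S138A C. *Thbs1*, thrombospondin 1, which activates latent TGF-beta, had 149, 147 and 107 CPM in the WT libraries and 173, 171 and 91.2 CPM in S138A A, B and C. WT 3 and S138A C were the lowest of their genotypes, and the log2 fold change was 0.11 (SE 0.26, edgeR adjusted p = 0.882), against 0.21 (adjusted p = 0.0203) in the 4 libraries without them. *Thbs2* was between 0.938 and 1.63 CPM in WT and between 0.680 and 1.73 in S138A libraries (edgeR adjusted p = 0.94).

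*Ctgf* and *Cyr61*, secreted proteins of the CCN family and known targets of YAP and TEAD, were called in none of the fits. *Ctgf* had 131, 111 and 74.3 CPM in the WT libraries and 109, 112 and 80.3 CPM in S138A A, B and C (log2 fold change -0.07, SE 0.23, edgeR adjusted p = 0.926), and an antisense gene shares 23.2% of its exon bases. *Cyr61* had 78.6, 74.6 and 84.0 CPM in the WT libraries and 78.1, 80.1 and 106 CPM in S138A A, B and C (log2 fold change 0.15, SE 0.14, edgeR adjusted p = 0.666). Both sets of values overlapped between the genotypes. *Postn*, periostin, which fibroblasts and bone-lining cells secrete, had 6, 9 and 28 counts in the WT libraries and 17, 22 and 18 counts in S138A A, B and C. WT 3 held the highest count, and the log2 fold change was 0.37 (SE 0.52, edgeR adjusted p = 0.793), against 1.22 (SE 0.40, adjusted p = 0.0545) in the 4 libraries without WT 3 and S138A C.

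*Mmp2*, the gelatinase that cleaves denatured collagen and collagen IV, was the 1 member called among the protease and its inhibitors. It had 9.90, 10.00 and 29.8 CPM in the WT libraries and 10.7, 13.6 and 49.8 CPM in S138A A, B and C. WT 3 and S138A C were far above the others, each S138A library exceeded the WT library of its number, and the block log2 fold change was 0.45 (SE 0.13, edgeR adjusted p = 0.0465; 0.752 without the block). That call was lost in the 4 libraries without WT 3 and S138A C (0.29, adjusted p = 0.127). *Timp2*, an inhibitor that also helps to activate MMP2, had 8.72, 9.74 and 12.4 CPM in the WT libraries and 12.7, 12.1 and 13.5 CPM in S138A A, B and C, with a log2 fold change of 0.31 (SE 0.18, edgeR adjusted p = 0.481). *Timp3*, the inhibitor that binds to matrix, was between 26.8 and 35.2 CPM in WT and between 25.5 and 47.1 in S138A libraries, and *Timp1* was between 15.8 and 19.4 CPM in WT and between 13.9 and 17.0 in S138A libraries. In the 4 libraries *Timp2* and *Timp3* passed the test (edgeR adjusted p = 0.0167 and 0.00535) and *Timp1* did not (0.19). The exons of *Timp3* share 21.3% of their bases with *Syn3* on the opposite strand.

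S138A C was compared with WT 3 apart, with 1 library a side and no replicate check, so the intervals given cover counting error only. Of the 34 tested members, 20 were higher and 14 lower in S138A C, and the 95% interval (exact binomial) of the fold excluded 1 for 15 of the higher and 10 of the lower. The share of all genes with such directions or intervals was not computed, so these counts are a description of the members only. A fold of at least 1.5 was reached upward by 10 members, where 12.7% of all genes reached it, and downward by 3, where 8.81% did. S138A A and B over WT 1 and 2 reached it upward for 16 members (10.2% of all genes) and downward for 1 (4.2%). The direction was the same in both sets of libraries for 22 members and opposite for 12, a split that was not counted over all genes. The median log2 ratio of the members was 0.11 in the pair and 0.44 in the other 4 libraries. Over all genes tested it was 0.0124 and 0.00567, from log2 values with 0.5 CPM added.

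*Col1a1* had a fold of 1.05 (95% counting interval 0.974 to 1.13) in the pair, from 1379 and 1407 counts, and of 3.45 in the other 4 libraries. *Col8a1* was at 0.506 (0.413 to 0.618) in the pair and 2.00 in the others, *Tnc* at 0.730 (0.549 to 0.967) against 2.66, and *Col12a1* at 0.773 (0.606 to 0.985) against 1.99. The interval of *Col1a1* in the pair included 1, and *Col8a1*, *Tnc* and *Col12a1* had opposite directions in the 2 sets. Other members kept a like fold in both: *Bgn* 1.82 (1.64 to 2.03) and 1.89, *Loxl2* 1.93 (1.797 to 2.08) and 1.68, *Col6a1* 1.8 (1.31 to 2.49) and 2.12, and *Fbn1* 1.57 (1.25 to 1.96) and 1.83. *Thy1* was 1.496-fold higher (1.32 to 1.70) in the pair and 2.30-fold higher in the other 4 libraries, and *Col5a2* was lower in both, at 0.350 (0.260 to 0.466) and 0.586. *Prrx1* rested on 2 counts in WT 3 and 14 in S138A C, a ratio of 7.20 (1.65 to 65.3). *Col3a1* had 20 and 34 counts, a ratio of 1.75 whose interval (0.978 to 3.21) included 1.

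The difference between the 2 genotype contrasts was tested as an interaction of genotype and set of libraries. It passed in edgeR (adjusted p under 0.05) for 8 members, where 2.98% of all genes passed, with a smaller log2 fold change in the pair for 7 (1.8% of all genes) and a larger one for 1 (1.18%). The 7 were *Col8a1*, *Tnc*, *Col1a1*, *Col12a1*, *Vim*, *Acta2* and *Thbs1*, and the 1 was *Fn1*. For *Col1a1* the difference in log2 fold change was -1.72 (SE 0.12, edgeR adjusted p = 0.00277), and for *Fn1* it was 0.41 (SE 0.08, adjusted p = 0.0453). Tested by limma-voom instead, the interaction passed for 7 members and 2.9% of all genes. The pair holds 1 library of each genotype, so the spread in this test comes from the other 4 libraries alone (2 residual degrees of freedom), and WT 3 and S138A C are assumed to vary like them. The sets were also read from these same data, which the p-values do not take into account.

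**Figure D3:**
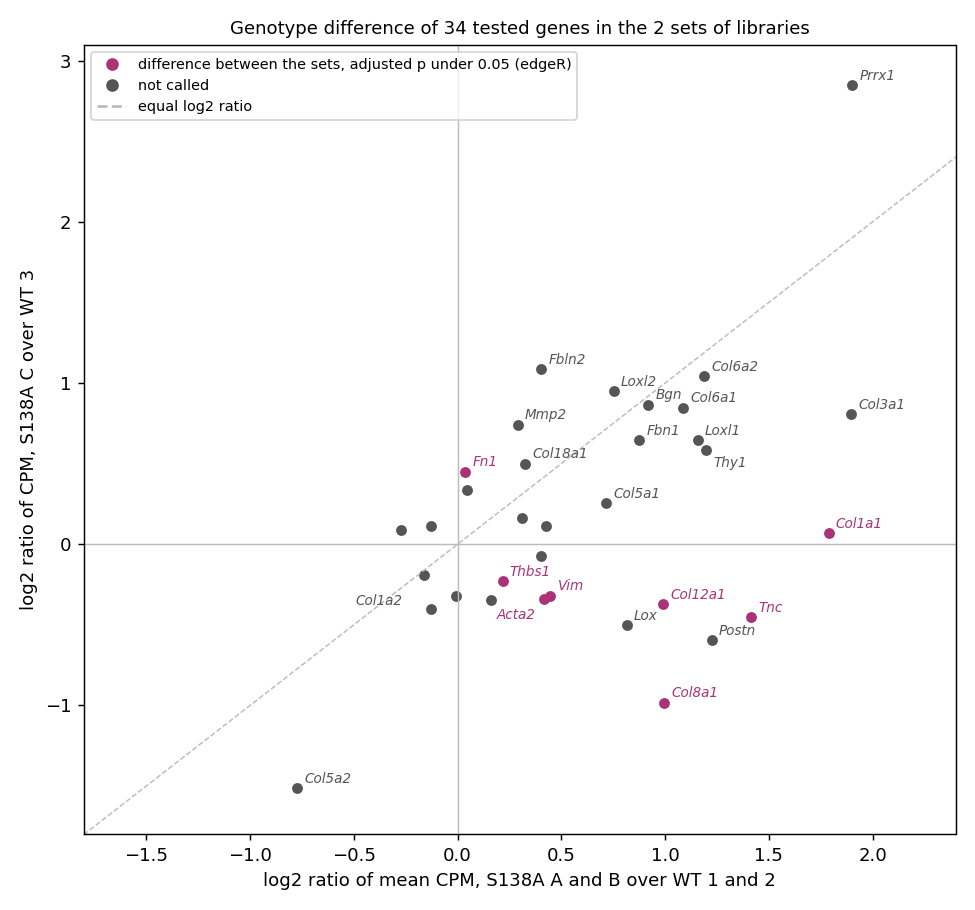
The log2 ratio of S138A C to WT 3 (y axis) against the log2 ratio of the mean CPM of S138A A and B to that of WT 1 and 2 (x axis) for the 34 tested genes, 1 point per gene. The 8 genes that passed the interaction test are purple, and *Col1a1* lies at 1.79 on the x axis and 0.07 on the y axis.

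The levels of the members were ranked per kilobase (kb) of transcript, taking the longest one that GENCODE M21 annotates as coding. In WT ESCs *Tagln*, *Vim* and *Fn1* had the highest levels, with 79.8, 69.2 and 64.8 CPM per kb, followed by *Col18a1* with 47.0, *Ctgf* with 42.3 and *Cyr61* with 39.2. The level of *Col1a1* was 4.37 CPM per kb in WT and 10.2 in S138A ESCs, and that of *Col3a1* was 0.0965 and 0.297. Of the 38 members, 19 reached 1 CPM per kb in WT ESCs. Summed over all 38 members, the CPM were 1646, 1635 and 1647 in the WT libraries and 1902, 1967 and 1975 in S138A A, B and C. The 5 fibrillar collagens summed to 47.3, 44.8 and 73.7 CPM in the WT libraries and to 103, 110.4 and 71.8 in S138A A, B and C. This sum was nearly equal in WT 3 and S138A C, while S138A A and B were above every WT library.

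Markers of the other cells that the cultures could hold were read beside these values. Of 19 markers of fibroblasts or feeder cells, which do not include any member, 13 passed the filter on low counts and 5 were under 10 counts in each of the 6 libraries. Among those 5, *Fap*, *Tcf21* and *Dpt* were at 0 counts in every library. The 19 markers summed to between 41.0 and 45.7 CPM in WT and between 45.5 and 61.3 in S138A libraries. *Nt5e*, which encodes the surface enzyme CD73, had 10.6, 10.00 and 4.25 CPM in the WT libraries and 28.9, 29.1 and 6.39 CPM in S138A A, B and C (block log2 fold change 1.23, SE 0.18, edgeR adjusted p = 0.00938; 0.37 without the block). Without *Nt5e* the other 18 markers summed to 33.3, 31.0 and 41.5 CPM in the WT libraries and to 32.4, 31.9 and 39.1 in S138A A, B and C. With the block 1 of the 13 tested markers was called higher, *Nt5e*, and 0 lower (10.7% and 9.13% of all genes). For the markers of smooth muscle (5 tested) and endothelium (4 tested) 0 genes were called, and for the 10 tested pluripotent markers 1 was called higher (*Klf4*) and 1 lower (*Zfp42*). The block called 1 of 10 primitive and parietal endoderm markers, 1 of 7 early mesoderm markers and 3 of 7 trophoblast markers higher, among the last *Krt7* (log2 fold change 1.10, edgeR adjusted p = 0.00582). It called 1 of 7 trophoblast markers and 1 of 2 tested neural markers lower. The part of such cells in the member values was not tested.

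The genes that modify and fold collagen gave 7 calls higher (30.4%) and 1 lower (4.35%) of 23 tested with the block. Over all genes tested these shares were 10.7% higher and 9.13% lower. *Serpinh1*, the collagen chaperone HSP47, had 70.2, 83.8 and 96.6 CPM in the WT libraries and 147, 158 and 207 CPM in S138A A, B and C. All S138A libraries were above all WT libraries, and the log2 fold change was 1.03 (SE 0.07, edgeR adjusted p = 0.00237; 0.17 without the block). *Bmp1*, the protease that removes the C-terminal propeptide of fibrillar collagens, had a log2 fold change of 1.07 (SE 0.20, adjusted p = 0.0151), and *Fkbp10*, a collagen-folding isomerase, of 0.51 (SE 0.08, adjusted p = 0.00997). *P4hb*, the subunit shared by the prolyl hydroxylases and also protein disulfide isomerase, was lower (-0.45, SE 0.06, adjusted p = 0.00909, edgeR with the block).

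Basement membrane genes gave 9 calls higher and 2 lower of 18 tested. *Hspg2* (perlecan, 0.58, SE 0.08, adjusted p = 0.00882), *Col4a2* (0.67, SE 0.10, adjusted p = 0.00912) and *Agrn* (agrin, 0.55, SE 0.10, adjusted p = 0.0133) were higher on the log2 scale, and *Lama1*, the laminin alpha chain of the early embryo, was lower (-0.43, SE 0.07, adjusted p = 0.0128, edgeR with the block). Of 16 tested collagens that are not members, 6 were called higher and 0 lower, among them *Col16a1* (1.30, adjusted p = 0.0174) and *Col7a1* (0.92, adjusted p = 0.0212). Matrix proteases and inhibitors gave 6 calls higher and 0 lower of 17, with *Mmp14*, the membrane protease that activates MMP2, at 0.65 (adjusted p = 0.00872) and *Mmp15* at 0.94 (adjusted p = 0.0132). For the TGF-beta signal 5 of 19 were higher and 0 lower, with *Ltbp3*, which tethers latent TGF-beta to the matrix, at 1.37 (adjusted p = 0.00872) and the TGF-beta-induced *Tgfbi* at 0.60 (adjusted p = 0.0148). The receptors for matrix gave 4 higher (16.7%) and 2 lower (8.33%) of 24, near the shares over all genes. Among them were the fibronectin receptor subunit *Itga5* at 0.43 (adjusted p = 0.0125) and *Itgb8*, lower, at -1.01 (adjusted p = 0.0428). YAP and TEAD genes gave 3 higher (18.8%) and 1 lower (6.25%) of 16, with *Vgll4* at 0.62 (adjusted p = 0.0105) and *Nf2*, an upstream inhibitor of YAP, at -0.51 (adjusted p = 0.00655). Regulators of the epithelial-mesenchymal transition gave 2 higher and 2 lower of 11 (18.2% each way), with *Snai1* at 1.10 (adjusted p = 0.0153) and *Grhl2* at -0.91 (adjusted p = 0.0134). Where 10.7% of all genes were called higher, basement membrane genes had 9 of 18. The share was 37.5% for the other collagens, 35.3% for the proteases and inhibitors and 26.3% for the TGF-beta signal. The receptors, the YAP and TEAD genes and the transition regulators lay nearer to the share of all genes. Whether a list differed from all genes was not tested, and the lists are short. Without the block 0 genes of each of these lists were called by edgeR, as for all genes tested.

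**Figure D4:**
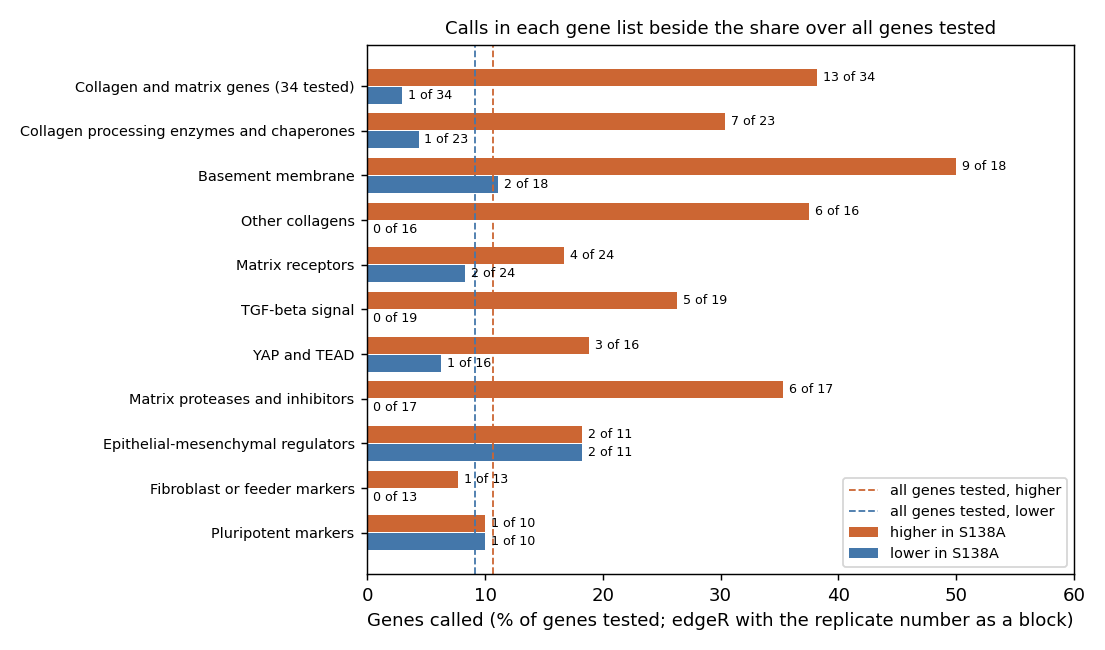
Share of the tested genes of each list drawn that edgeR called higher (orange) or lower (blue) in S138A ESCs with the library number as a block, with the counts at the bars. Of the marker lists, only those of fibroblasts or feeder cells and of pluripotent cells are drawn. Dashed lines mark the share over all genes tested, 10.7% higher and 9.13% lower, and the members are at 13 of 34 higher and 1 of 34 lower.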

How the data were processed

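PolyA RNA was made into libraries with a kit that keeps the strand, from 500 ng of RNA each. The authors deposited a table of raw counts per gene. Their processing notes name CASAVA version 1.8.4, TopHat2 version 2.0.11, featureCounts and the build mm9 (NCBIM37). The version of featureCounts, its strand setting and its treatment of shared reads are not given in the sources used here. The members and lists were chosen with earlier results of these data known.

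All 6 columns of the table were used (0 left out). WT columns match the labels by name, and S138A columns match only the group. Symbols were matched by identifier for 32897 rows (87.4%), and 0 rows named no gene. Coordinates, lengths and exon overlaps are from GENCODE M21 and promoters from RefSeq, both on GRCm38, a later build than that of the counts. Low counts were filtered with filterByExpr (minimum count 10, minimum total 15), which left 16023 genes. TMM factors and edgeR version 4.0.16 (quasi-likelihood test, Benjamini-Hochberg adjustment over all genes tested, threshold 0.05) were used in R version 4.3.3, with limma version 3.58.1, DESeq2 version 1.42.0 and Python version 3.11.15. Scripts were tested on simulated data. Depth was 33227593 to 37169770 counts, and intervals for single libraries are exact binomial intervals at 95%, for counting error only.

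The block takes the final digit of each column name as the library number. Deviations from the group means correlated at 0.53, 0.493 and 0.753 within numbers, and crossing the first 2 numbers gave 0.515 and 0.526, so that those cannot be told apart. The test was repeated with DESeq2 and limma-voom, upper-quartile and RLE factors, no filter or one at 1 CPM, stricter thresholds, each library left out in turn, the block, a term for the set of libraries and the 4 libraries alone. Values per library are given for the 14 members with the lowest unadjusted p, the 6 with the highest CPM and 15 listed by name, and also for *Bgn*, *Mmp2* and *S100a4*, and in part *Lox* and *Col8a1*, chosen after their values were seen. The others are given by range, with up to 4 genes of each list by p-value. Ratios between genes were chosen after seeing the data.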

Additional observations from a re-analysis of the deposited data

Results flagged for a closer look

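Each of 8 members is listed because the interaction test in edgeR, adjusted over all genes tested, passed for the difference between its genotype contrast in the pair WT 3 and S138A C and that in the other 4 libraries. The pair has 1 library of each genotype and no spread of its own, all of the spread comes from the other 4 libraries, and the sets were read from the same data, so these p-values do not establish that the contrasts differ. The values are the log2 fold change in the pair minus that in the other 4 libraries. *Col8a1* had -1.98 (SE 0.22, adjusted p = 0.00815), *Tnc* had -1.87 (SE 0.24, adjusted p = 0.0132) and *Col1a1* had -1.72 (SE 0.12, adjusted p = 0.00277). *Col12a1* had -1.36 (SE 0.28, adjusted p = 0.0473), which limma-voom did not call (adjusted p = 0.0645). *Vim* had -0.76 (SE 0.10, adjusted p = 0.0142), *Acta2* had -0.76 (SE 0.11, adjusted p = 0.0203) and *Thbs1* had -0.45 (SE 0.09, adjusted p = 0.0497). *Fn1* was the 1 member with a larger value in the pair, at 0.41 (SE 0.08, adjusted p = 0.0453). No outlier check was made, since groups of 3 are too small for it.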

How the results depend on the processing

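The 3 against 3 comparison called 0 members, and the settings that did call members were DESeq2 (6 higher, 797 genes in all), the replicate block (13 higher and 1 lower, 3180 genes), the term for the set of libraries (14 higher and 1 lower, 4418 genes), the 4 libraries alone (21 higher and 1 lower, 4756 genes) and leaving out 1 library (0 to 2 higher, 0 to 79 genes in all, the 2 and the 79 without S138A C). No low-count filter called 4 genes in all and 0 members. Over the 16 other gene lists, the block called 49 genes higher and 11 lower, the set term 58 and 14, and the 4 libraries alone 73 and 13. The median log2 fold change of the members ran from 0.32 to 0.55 with 1 library left out, the highest without WT 3. The interaction called 477 genes in edgeR and 465 in limma-voom.

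Over 340 alternative values of 23 named members, 284 kept their direction and side of the threshold, 47 became called (45 of them outside leave-one-out) and 9 changed direction, all of these with 1 library left out and none of them called. With 1 library left out the log2 fold change ran from -0.011 (without S138A C) to 0.29 for *Fn1*, from -0.0029 (without S138A C) to 0.23 for *Cyr61*, from -0.20 to 0.084 (without S138A C) for *Tagln*, from -0.27 to 0.11 (without WT 1) for *Ctgf*, from -0.54 to 0.15 (without WT 3) for *Col1a2*, and from -0.037 (without S138A A) to 0.35 for *Thbs1*, whose value was also below 0 without WT 3 or S138A B, as that of *Ctgf* was above 0 without S138A C. The cause was not tested. The values of *Lum*, *Dcn*, *Twist2*, *S100a4*, *Prrx1* and *Postn* rest on few counts. For *S100a4* and *Twist2* the counts also depend on how reads in exon bases shared with another gene were treated, which is not stated.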
